A study of Homo sapiens with 9 samples.

Results

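Cathepsins are proteases of the endosomal and lysosomal compartment, and 10 of the 27111 genes in the deposited gene tables were followed here. They were chosen by exact gene symbol as CTSA, CTSB, CTSC, CTSD, CTSF, CTSH, CTSK, CTSL, CTSS and CTSZ. RNA-seq was performed on multicellular tumor spheroids (MTSs) of PC-3, a human prostate cancer cell line derived from a bone metastasis. The 3 lines compared were stably transduced with the lentiviral pSIN vector, selected with puromycin, and grown as MTSs with Matrigel. Empty carried the vector alone, NF-YAl carried the long isoform of the transcription factor subunit NF-YA, and NF-YAs carried the short one. The inserts were murine sequences, each library pooled several MTSs, and every line also kept its own endogenous NF-YA. Each line had 3 libraries, lettered A, B and C, except that the third NF-YAl library carries the letter D. They came from independent experiments on stable lines, so the p-values describe the spread between experiments and not between separately made lines.

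Cathepsins are made as inactive precursors, tagged with mannose 6-phosphate in the Golgi apparatus, and activated by cleavage in the acidic lysosome. Most are papain-like cysteine proteases, whereas CTSD is an aspartic protease and CTSA a serine carboxypeptidase. In tumors they are best known for degrading extracellular matrix and basement membrane when secreted. NF-Y binds the CCAAT box of many promoters, and the NF-YA isoforms differ by an exon in the glutamine-rich transactivation domain, which NF-YAl retains and NF-YAs lacks.

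The libraries held between 18076979 and 27163976 expected counts, the read numbers that the RSEM software assigns to each gene. Values between libraries are compared as CPM, counts scaled to the size of the library and by TMM, a method that balances libraries on the bulk of their genes, and values between genes as TPM, which also correct for transcript length. NFYA was measured at 89.2, 96.7 and 89.4 CPM in the Empty libraries, 287, 383 and 353 in those of NF-YAl and 264, 263 and 254 in those of NF-YAs. Both NF-YA lines therefore lay above Empty in every library, although reads of the murine inserts and of the human gene cannot be told apart in these counts. The epithelial marker list (KRT8, KRT18, KRT19, EPCAM, CDH1) summed to 1171 to 1294 CPM in Empty and to 729 to 833 CPM in the NF-YA lines, a sum carried by the 3 keratins. EPCAM was instead higher in the NF-YA lines, with mean CPM of 0.982 in Empty, 4.42 for NF-YAl and 2.71 for NF-YAs, and CDH1 had 6.58, 7.45 and 2.63. The macrophage list of 7 genes (PTPRC, CD14, CSF1R, CD163, AIF1, ITGAM, MRC1) stayed between 2.81 and 4.04 CPM, with CD163 and AIF1 at 0 in every library. The endothelial markers PECAM1 and CDH5 summed to 5.19 to 7.75 CPM in Empty and NF-YAl and 1.84 to 2.21 in NF-YAs. The part of these differences in the values below was not tested, and in bulk RNA fewer cells of a kind cannot be told apart from less RNA per cell. NF-YAl replicate D stood apart in TPM, because genes with an effective length under 300 bases took 24.0% of its TPM and between 46.9% and 60.6% elsewhere. TPM of longer genes, cathepsins included, are thus raised in that library. TPM serve here for the order of the genes within a line, for transcript shares and as an alternative scale for the tests.

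Short reference windows show where the promoters of the members hold the CCAAT box, the site of NF-Y, or CACGTG, the core of the site of the lysosomal regulators of the MiT/TFE family. The 250 bases before the annotated start were read from RefSeq (GRCh38.p14) for 7 members, CTSA, CTSC, CTSD, CTSF, CTSH, CTSL and CTSZ, and each matched 1 place on its chromosome in GRCh37, the build of the counts. No window was read for CTSB, CTSK and CTSS. All 7 windows lie inside the GENCODE span of their gene, whose outermost annotated start is farther upstream. Windows are given 5′ to 3′ on the strand of the gene, with the motif in capitals.
CTSL, CCAAT, chr9:90340936-90340964, plus strand: ctgccggcacagCCAATcgcagcgcagcc
CTSC, CCAAT, chr11:88070972-88071000, minus strand: ggcgcccaacccCCAATcccctgctgctc
CTSF, CACGTG, chr11:66336111-66336140, minus strand: ccctgcgcgcccCACGTGcctcctgtaaac
CTSF, CACGTG, chr11:66336183-66336212, minus strand: acatataacaagCACGTGatagaggtcagt
CTSD, CACGTG, chr11:1785187-1785216, minus strand: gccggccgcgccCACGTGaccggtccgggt
CTSA, CACGTG, chr20:44519920-44519949, plus strand: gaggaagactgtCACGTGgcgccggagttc
CTSA, CACGTG, chr20:44519937-44519966, plus strand: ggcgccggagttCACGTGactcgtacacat

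CCAAT, searched on both strands (CCAAT or ATTGG), was present in the windows of CTSL, at 86 to 82 bases before the start, and of CTSC, at 84 to 80 bases. It was present in 33.0% of all 27305 RefSeq windows of this length and in 34.5% of the 12173 windows of tested genes. CACGTG, which reads the same on both strands, was present in the windows of CTSA, CTSD and CTSF. Its share was 6.49% of all windows and 8.44% of those of tested genes. Neither motif was found in the windows of CTSH and CTSZ, and the motifs do not overlap in letters. The matches describe these letters only, and no binding was measured.

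The members differed widely in their level per transcript length. In Empty, CTSD was the highest with 160.2 ± 25 TPM (SD, n = 3), followed by CTSA with 133 ± 14.2, CTSZ with 70.3 ± 9.65 and CTSC with 59.6 ± 12.7. CTSB had 41.0 ± 4.39 TPM, CTSH 27.7 ± 1.05 and CTSL 19.3 ± 3.0. CTSF, CTSK and CTSS were low, with 6.32 ± 0.754, 4.80 ± 0.671 and 0.337 ± 0.0945 TPM. Libraries overlapped between the neighbours CTSD and CTSA, CTSZ and CTSC, and CTSF and CTSK. In each of the 3 Empty libraries, however, the first gene of each of these pairs was the higher one.

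CTSD and CTSA headed the order of the means in all 3 lines. CTSS, the protease that trims the invariant chain of MHC class II in antigen-presenting cells, closed it. The other places moved. CTSL stood below CTSH in Empty but above it in NF-YAs, where CTSL had 43.1 ± 1.60 TPM and CTSH 12.7 ± 1.16 TPM with no overlap between libraries. In NF-YAl they overlapped, with 28.6 ± 16.1 TPM for CTSL and 23.8 ± 4.22 for CTSH. CTSL was the higher one in only 1 of these 3 libraries, replicate D, with 47.0 against 27.0 TPM. CTSK lay above CTSF in the NF-YAs mean, with 3.15 ± 0.574 and 1.66 ± 0.493 TPM. The NF-YAl means had the same order, with overlapping libraries, and 2 of the 3 libraries followed it. CTSC, at 131 ± 60.8 TPM, overlapped CTSA above it and CTSZ below it in NF-YAl, although it exceeded CTSZ within each of the 3 libraries. In NF-YAl replicate D, both CTSC (201 TPM) and CTSZ (195 TPM) exceeded CTSA (188 TPM). The order of the means was the same in each line when length-scaled TMM counts replaced TPM.

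**Figure D1:**
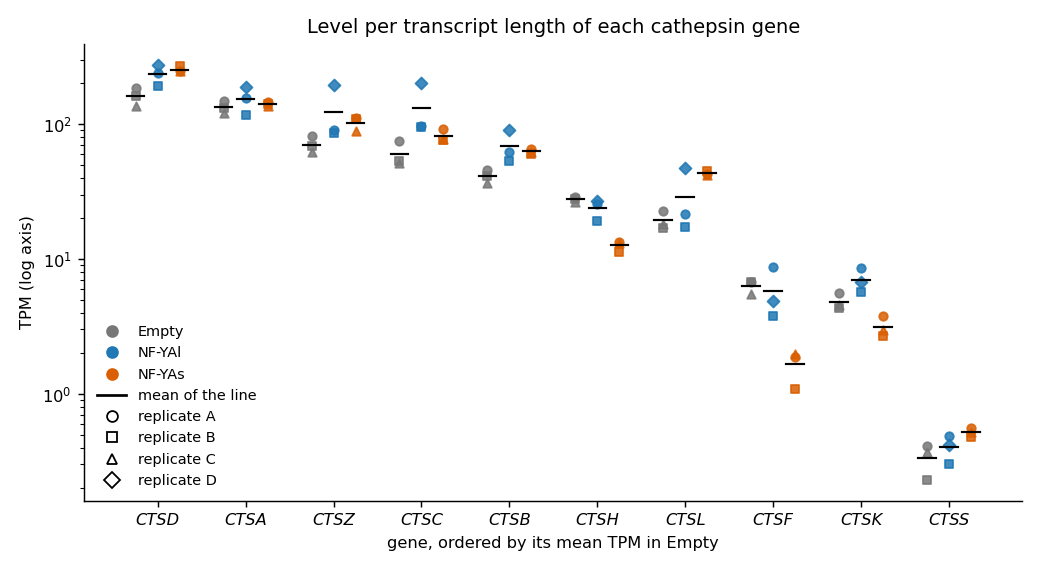
TPM of the 10 cathepsin genes (log axis) in each library of Empty, NF-YAl and NF-YAs, with replicate letters as marker shapes and line means as black bars. By line means, CTSD and CTSA lead in every line, and CTSL and CTSH change places between Empty and NF-YAs. Replicate D of NF-YAl is raised for the abundant genes.

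The comparison of NF-YAl with Empty addresses the long isoform. CTSB, CTSC and CTSZ rose and CTSH fell, and the other 6 members did not pass the test, an edgeR quasi-likelihood F test with adjusted p under 0.05. Among the 17108 genes tested, 16.2% rose and 15.9% fell by the same rule, against 3 and 1 of the 10 members. No member met the stricter rule for a differentially expressed gene (DEG), an adjusted p under 0.01 with an absolute log2FC above 1, which 4.76% of the tested genes met upward and 3.5% downward. For 4 members all NF-YAl libraries lay on the same side of all Empty libraries, as was the case for 42.4% of all tested genes. The median log2FC of the members was 0.21, beside 0.01 for all tested genes.

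The comparison of NF-YAs with Empty addresses the short isoform. CTSL, CTSD, CTSB and CTSZ rose and CTSF, CTSH and CTSK fell, while 18.5% of the tested genes rose and 16.9% fell. CTSL was a DEG upward, as were 5.44% of the tested genes, and CTSF and CTSH were DEGs downward, as were 3.9%. Libraries did not overlap for 9 members, all but CTSA, and for 56.4% of the tested genes. The median log2FC of the members was 0.31 beside -0.0026 for all tested genes, with members moving far in both directions.

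In the direct comparison of the isoforms, CTSC, CTSF, CTSH and CTSK were higher and CTSL was lower in NF-YAl than in NF-YAs. These were the 5 members whose libraries did not overlap, beside 39.5% of the tested genes. Of all tested genes, 10.8% were higher and 12.5% lower in NF-YAl by the same rule. CTSF and CTSK were DEGs, in the direction taken by 1.74% of the tested genes, and no member was a DEG in the opposite direction, taken by 2.86%. Both comparisons with Empty share its 3 libraries, so the direct comparison carries the statements on differences between the isoforms.

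**Figure D2:**
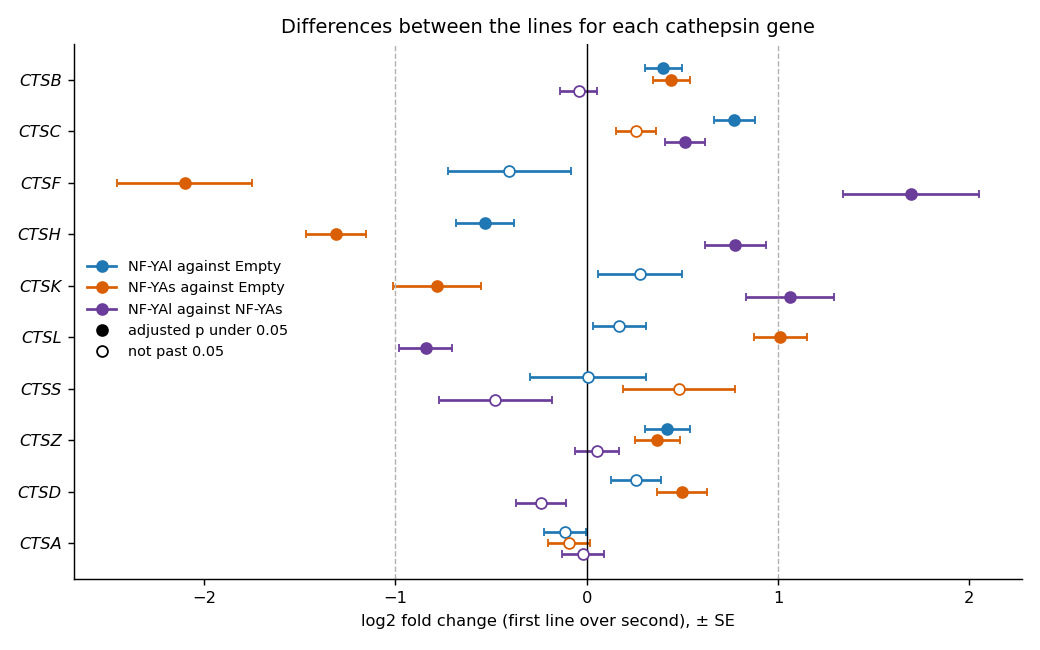
Log2 fold change with its SE for each cathepsin gene in the 3 comparisons between lines, the first line over the second. Filled points passed an adjusted p of 0.05 and dashed lines mark a log2FC of 1 and -1; CTSF lies farthest to the left in NF-YAs against Empty and CTSL farthest to the right.

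CTSL, the endopeptidase that degrades a wide range of proteins in the lysosome and also matrix proteins outside the cell, was the member with the largest rise in NF-YAs. It measured 25.1, 24.3 and 26.8 CPM in the Empty libraries, 25.7, 24.4 and 35.5 in those of NF-YAl and 46.2, 53.7 and 53.5 in those of NF-YAs. All NF-YAs libraries lay above all others, while replicates A and B of NF-YAl lay within the range of Empty and replicate D above it. CTSL rose 2.01-fold in NF-YAs over Empty (log2FC 1.01 ± 0.14, SE; adjusted p = 0.000153) and was 1.79-fold lower in NF-YAl than in NF-YAs (adjusted p = 0.00127). For NF-YAl over Empty the log2FC was 0.17 (adjusted p = 0.387), and -0.02 without NF-YAl replicate D. In NF-YAs the log2FC lies close to the DEG limit, and 4 of 18 alternative fits gave no DEG there, with a lowest log2FC of 0.98.

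CTSF, a cysteine endopeptidase of the lysosome, was the member with the largest decrease in NF-YAs. It measured 9.35, 12.2 and 10.1 CPM in the Empty libraries, 13.0, 6.58 and 4.56 in those of NF-YAl and 2.53, 1.64 and 3.18 in those of NF-YAs. NF-YAs libraries were the lowest, whereas those of NF-YAl spread from above Empty to below it. CTSF was 4.29-fold lower in NF-YAs than in Empty (log2FC -2.10 ± 0.35, adjusted p = 0.000668) and 3.24-fold higher in NF-YAl than in NF-YAs (adjusted p = 0.00542). Against Empty, the log2FC in NF-YAl was -0.40 (adjusted p = 0.370) and reached -0.92 (adjusted p = 0.0105) without NF-YAl replicate A. The DEG in NF-YAs over Empty held in all 18 alternative fits, and that between the isoforms in 14 of 18, with an adjusted p of up to 0.0305. The expected counts behind CTSF ranged from 33 to 308 per library.

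CTSH, an aminopeptidase that also acts on surfactant precursors in the lung, was lower in both NF-YA lines. It measured 29.3, 36.6 and 36.2 CPM in the Empty libraries, 27.7, 24.3 and 18.6 in those of NF-YAl and 13.2, 12.5 and 15.5 in those of NF-YAs. The 3 lines did not overlap, with NF-YAl between the other two. CTSH fell 2.48-fold in NF-YAs (log2FC -1.31 ± 0.16, adjusted p = 6.2e-05) and 1.45-fold in NF-YAl (log2FC -0.53 ± 0.15, adjusted p = 0.0191). The difference between the isoforms also passed, with a log2FC of 0.78 (adjusted p = 0.00460). The call in NF-YAl was lost without Empty replicate B (adjusted p = 0.0754), without Empty replicate C (adjusted p = 0.0756) and with the replicate letter as a block (adjusted p = 0.0728). It was also lost with limma on log2(TPM + 0.1) (adjusted p = 0.628) and on TPM rescaled without short genes (adjusted p = 0.0958).

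CTSK, the collagen-degrading protease of osteoclasts, was expressed at low levels in these cells. It measured 6.88, 6.95 and 7.44 CPM in the Empty libraries, 11.4, 8.92 and 5.63 in those of NF-YAl and 4.52, 3.58 and 4.24 in those of NF-YAs. NF-YAs libraries lay below all others, and those of NF-YAl lay on both sides of Empty. CTSK was 2.09-fold higher in NF-YAl than in NF-YAs (log2FC 1.06 ± 0.23, adjusted p = 0.00641) and 1.72-fold lower in NF-YAs than in Empty (adjusted p = 0.0188). Between the isoforms CTSK was a DEG in 8 of 18 alternative fits, with log2FC from 0.82 to 1.32 and an adjusted p of up to 0.0357. The call in NF-YAs over Empty was lost without Empty replicate C (adjusted p = 0.0610), NF-YAs replicate B (adjusted p = 0.0769) or NF-YAs replicate C (adjusted p = 0.0510). For NF-YAl over Empty the log2FC was 0.28 (adjusted p = 0.370), and 0.51 (adjusted p = 0.0272) without NF-YAl replicate D.

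**Figure D3:**
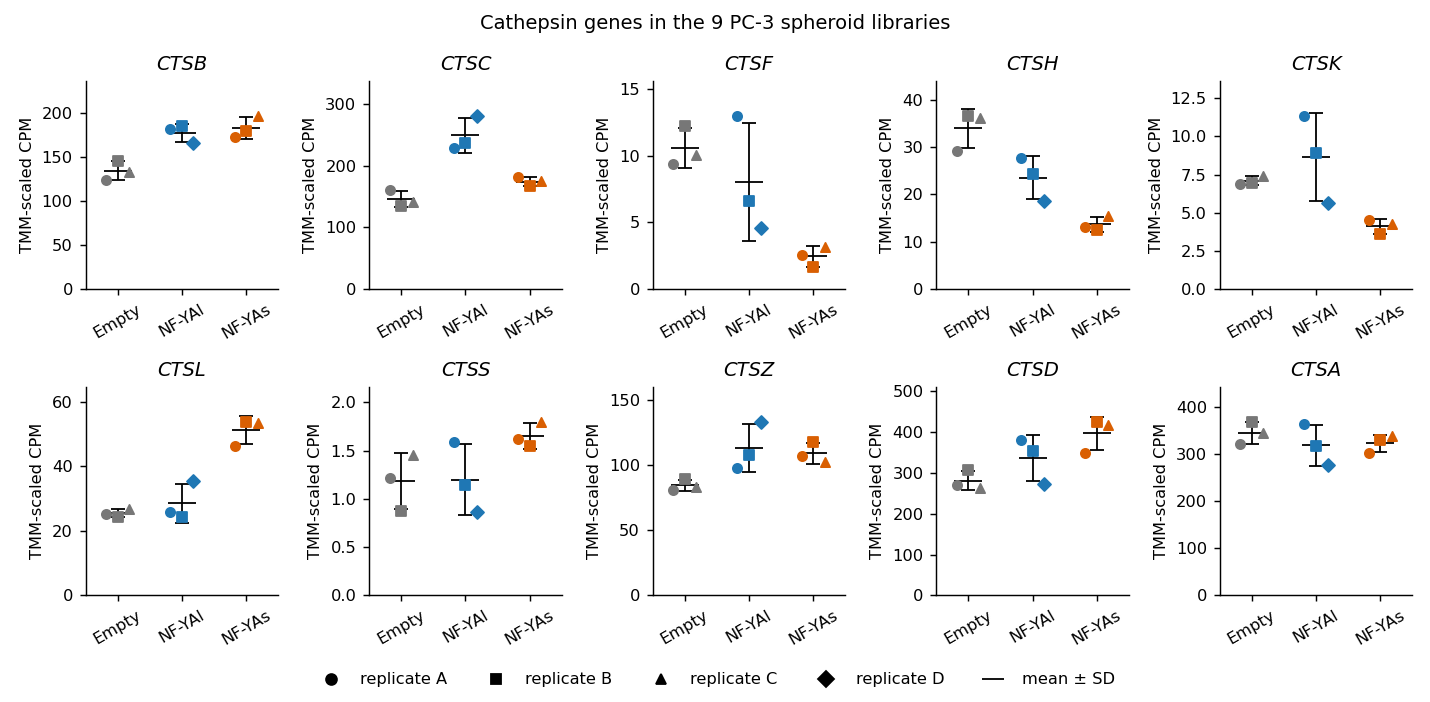
TMM-scaled CPM of each cathepsin gene in the 3 libraries of Empty, NF-YAl and NF-YAs, with the mean and SD in black, replicate letters as marker shapes and axes starting at 0. CTSL is raised and CTSF, CTSH and CTSK are lowered in NF-YAs, CTSC is highest in NF-YAl, and CTSB and CTSZ lie above Empty in both lines.

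CTSC, the dipeptidyl peptidase that activates granule serine proteases of immune cells, was the member with the largest rise in NF-YAl. It measured 161, 135 and 141 CPM in the Empty libraries, 229, 237 and 281 in those of NF-YAl and 181, 166 and 175 in those of NF-YAs. The 3 lines did not overlap, with NF-YAl the highest. CTSC rose 1.71-fold in NF-YAl (log2FC 0.77 ± 0.11, adjusted p = 0.000197) and was 1.43-fold higher in NF-YAl than in NF-YAs (adjusted p = 0.00494). In NF-YAs the log2FC over Empty was 0.26 (adjusted p = 0.0783). CTSC passed there in 7 of 18 alternative fits, with a lowest adjusted p of 0.0052. Among these were the fits without Empty replicate A (adjusted p = 0.0446), NF-YAl replicate A (adjusted p = 0.0440) or NF-YAl replicate D (adjusted p = 0.0283).

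CTSB, which cleaves both inside and at the end of its substrates and is often studied at the invasive front of tumors, was higher in both NF-YA lines. It measured 124, 146 and 133 CPM in the Empty libraries, 181, 185 and 166 in those of NF-YAl and 172, 179 and 196 in those of NF-YAs. Every NF-YA library lay above every Empty library, and the NF-YA lines overlapped each other. The rise was 1.32-fold in NF-YAl (log2FC 0.40 ± 0.10, adjusted p = 0.00757) and 1.36-fold in NF-YAs (log2FC 0.44 ± 0.10, adjusted p = 0.00373). Between the isoforms the log2FC was -0.04 with an SE of 0.10.

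CTSZ, a carboxypeptidase also known as cathepsin X, showed a similar rise in both lines. It measured 81.2, 89.1 and 83.0 CPM in the Empty libraries, 98.1, 108 and 133 in those of NF-YAl and 107, 118 and 102 in those of NF-YAs. Both NF-YA lines lay above Empty and overlapped each other. The rise was 1.34-fold in NF-YAl (adjusted p = 0.0155) and 1.29-fold in NF-YAs (adjusted p = 0.0272). The call in NF-YAl was lost without Empty replicate C (adjusted p = 0.0611), and the call in NF-YAs without Empty replicate A (adjusted p = 0.0827), Empty replicate C (adjusted p = 0.0914), NF-YAs replicate A (adjusted p = 0.0573) or NF-YAs replicate B (adjusted p = 0.113).

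CTSD, the aspartic endopeptidase that helps to activate the cysteine cathepsins, was the most abundant member. It measured 271, 308 and 264 CPM in the Empty libraries, 381, 354 and 274 in those of NF-YAl and 350.2, 425 and 416 in those of NF-YAs. NF-YAs lay above Empty in all libraries, and replicate D of NF-YAl fell within the range of Empty. CTSD rose 1.41-fold in NF-YAs (log2FC 0.50 ± 0.13, adjusted p = 0.0108), a call lost without Empty replicate C (adjusted p = 0.0543). For NF-YAl over Empty the log2FC was 0.26 (adjusted p = 0.155), and 0.39 (adjusted p = 0.0152) without NF-YAl replicate D.

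CTSA, a carboxypeptidase that also protects the lysosomal enzymes GLB1 and NEU1 within a complex, did not pass in any comparison. It measured 320.3, 368 and 345 CPM in the Empty libraries, 363, 317 and 276 in those of NF-YAl and 303, 329 and 337 in those of NF-YAs, with overlapping lines. Its log2FC was -0.11 ± 0.11 in NF-YAl and -0.09 ± 0.11 in NF-YAs. CTSS measured 1.22, 0.874 and 1.46 CPM in the Empty libraries, 1.59, 1.15 and 0.863 in those of NF-YAl and 1.62, 1.54 and 1.80 in those of NF-YAs. CTSS rested on 20.6 to 38.6 expected counts per library, and its log2FC of 0.48 ± 0.29 in NF-YAs over Empty did not pass (adjusted p = 0.226) although those libraries did not overlap.

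Leaving out Empty replicate C lowered the number of members past the test from 4 to 2 in NF-YAl and from 7 to 4 in NF-YAs, where CTSB, CTSF, CTSH and CTSL still passed. NF-YAl replicate D was the highest or the lowest of the 3 NF-YAl libraries for all 10 members, beside 75.1% of all tested genes. Replicate A was so for 8 members and 74.6% of the tested genes. Without replicate D, 6 members passed in NF-YAl. On log2(TPM + 0.1) with limma, which carries the shift of TPM in that library, CTSC alone passed in NF-YAl, and CTSF, CTSH and CTSL in NF-YAs. On TPM rescaled without the short genes, 4 members passed in NF-YAl and 8 in NF-YAs. The shares of all tested genes past the test in these alternative fits are not given here, so these counts are not read as particular to cathepsins.

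In GRCh37, CTSA spans chr20:44518783-44527588, CTSC chr11:87998237-88092852, CTSD chr11:1773982-1785803, CTSH chr15:79213400-79241916 and CTSZ chr20:57560741-57583293, and CTSB lies on chromosome 8. CTSK (chr1:150767356-150782053) and CTSS (chr1:150702555-150738433) lie close to each other on the minus strand. The median log2FC of the 100 tested genes nearest to CTSK was -0.37 in NF-YAs over Empty and 0.32 in NF-YAl over NF-YAs, the same directions as CTSK itself, in comparisons that share the NF-YAs libraries. In NF-YAl over Empty the neighbours' median was -0.075 and the value of CTSK 0.28. CTSS had almost the same neighbours, with medians of -0.38 and 0.35, and its own values of 0.48 and -0.48 had the opposite signs. The part of the region in the values of CTSK was not tested. For CTSL (chr9:90338966-90346384) and CTSF (chr11:66330935-66336350) the neighbours' medians in NF-YAs over Empty were 0.06 and -0.07. CTSA overlaps NEURL2 and PLTP on the opposite strand and CTSZ overlaps NELFCD, so their counts can hold reads of those genes if strand was not used in counting. CTSD overlaps another annotated protein-coding gene on its own strand, for which no symbol is given.

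Across the 9 libraries, CTSF and CTSH varied together most closely among the members (Pearson r of log2 CPM 0.96), and CTSF and CTSL varied most oppositely (r -0.93). The points share the 3 lines, so these values mainly describe the differences between line means. Among 12125 tested genes with at least 5 CPM on average, the patterns most like CTSL were those of RNASEH1-AS1 (r 0.99), STARD3NL (0.98) and MALSU1 (0.98). Those most like CTSF were EPS8, TNFRSF21 and GTF2IRD2 (0.98 to 0.97), and those most like CTSH were CPZ, GPR107 and GTF2IRD2 (each 0.99). CTSK was matched most closely by MSANTD2 (0.98), ST7 (0.98) and IPO5P1 (0.97).

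The transcripts counted for a gene were examined for the 6 members with more than 1 RefSeq transcript. The most abundant transcript of CTSB, NM_001908.4, took 87.3%, 87.1% and 84.2% of the gene's TPM in the Empty libraries, 79.8%, 75.7% and 73.6% in those of NF-YAl and 85.2%, 82.5% and 81.8% in those of NF-YAs. NF-YAl was below both other lines in every library. The share of NM_147782.3 was 8.45%, 10.6% and 13.8% in the Empty libraries, 16.6%, 22.2% and 22.2% in those of NF-YAl and 11.4%, 16.2% and 15.7% in those of NF-YAs. For NM_001908.4 the mean difference of NF-YAl from Empty was -9.82 percentage points, with a two-sided exact permutation p of 0.1, the smallest that 3 against 3 libraries allow, and 0.3 after adjustment over 18 comparisons.

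The CTSL transcript with the highest mean TPM over the 9 libraries, NM_001912.4, took 31.6 ± 6.25% (SD, n = 3) under Empty, against 43.0 ± 3.89% under NF-YAl and 43.2 ± 4.16% under NF-YAs. Libraries of Empty lay below those of both NF-YA lines (exact permutation p = 0.1 for each, 0.3 adjusted). In Empty it did not exceed the other main transcripts on average, since NM_001257971.1 took 33.5 ± 3.46% and NM_145918.2 took 32.7 ± 2.55%. Between single libraries NM_145918.2 varied from 17.8% to 45.5%. RSEM divides reads between near-identical transcripts by estimate, so these shares carry an error that 3 libraries cannot resolve. The leading transcripts of CTSA and CTSH kept 87.4% or more of the TPM in every library, and that of CTSC kept between 71.9% and 80.0%.

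**Figure D4:**
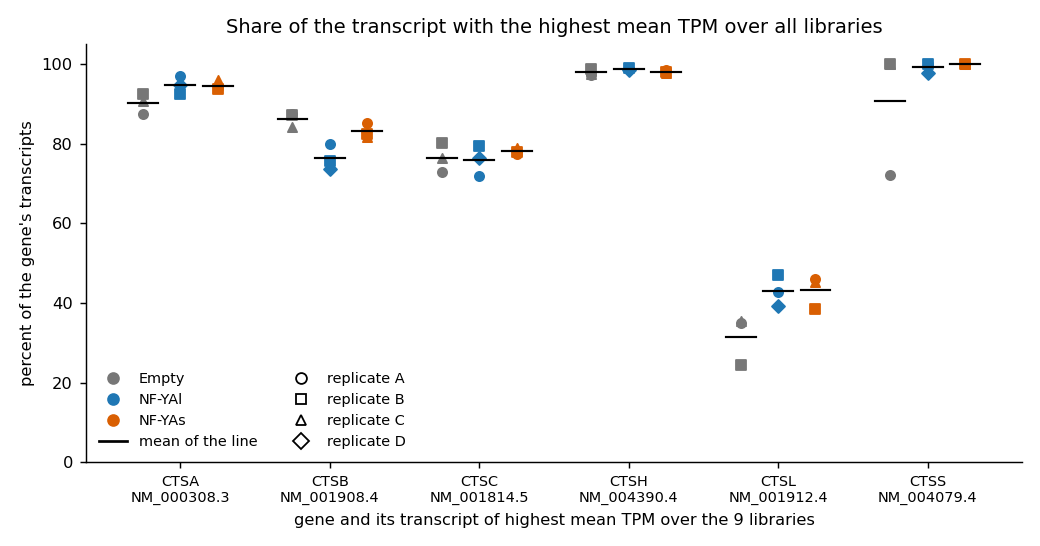
Percent of the gene's TPM taken by the transcript with the highest mean TPM over the 9 libraries, for CTSA, CTSB, CTSC, CTSH, CTSL and CTSS in each library, with replicate letters as marker shapes and line means as black bars. The CTSB transcript is lowest in NF-YAl, and the CTSL transcript is lowest in Empty.

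Of the other cathepsin genes, CTSO and CTSV were high enough to be tested and both rose in both lines. CTSV, a close paralog of CTSL, measured 4.03, 4.65 and 6.30 CPM in the Empty libraries, 7.48, 9.41 and 9.65 in those of NF-YAl and 8.51, 7.81 and 7.42 in those of NF-YAs. Its log2FC was 0.83 (adjusted p = 0.00498) in NF-YAl and 0.66 (adjusted p = 0.0158) in NF-YAs. The expected counts of CTSL were whole numbers in every library, within 0.001, as those of 5 other members were. Those of CTSV were fractional in most libraries, such as 117.45 in Empty replicate B. RSEM may thus have divided some CTSV reads with another gene, so its single values are uncertain. CTSO had a log2FC of 0.43 (adjusted p = 0.0228) and 0.50 (adjusted p = 0.00922), CTSW had 2 to 15 expected counts per library, and CTSE and CTSG were at 0.

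The inhibitors of cysteine cathepsins moved in both directions. CSTB, the intracellular inhibitor stefin B, measured 178, 192 and 219 CPM in the Empty libraries, 89.9, 113 and 122 in those of NF-YAl and 94.7, 94.5 and 107 in those of NF-YAs. Every NF-YA library lay below every Empty library, and the log2FC was -0.86 (adjusted p = 0.000276) in NF-YAl and -0.99 (adjusted p = 8.38e-05) in NF-YAs. CST3, the secreted inhibitor cystatin C, fell in NF-YAl (log2FC -0.73, adjusted p = 0.000216), whereas the value in NF-YAs was -0.22 (adjusted p = 0.112), and the direct comparison passed (log2FC -0.51, adjusted p = 0.00412).

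CST1, a salivary cystatin, measured 1.09, 1.91 and 1.89 CPM in the Empty libraries, 4.03, 3.27 and 2.01 in those of NF-YAl and 10.3, 10.7 and 15.1 in those of NF-YAs. It rose with a log2FC of 0.91 (adjusted p = 0.0342) and 2.88 (adjusted p = 1.7e-05). Of the 6 inhibitors tested, 4 rose and 2 fell in NF-YAl, and 3 rose and 1 fell in NF-YAs. Of all tested genes, 16.2% rose and 15.9% fell in NF-YAl, and 18.5% rose and 16.9% fell in NF-YAs, the shares beside which the counts of this and the following lists stand. The other tested inhibitors, CST4, SERPINB3 and SERPINB4, are named after their values were seen. They stayed below 5 CPM in every library and had log2FC between 1.27 and 3.41 in NF-YAl. CST1 and CST4, and SERPINB3 and SERPINB4, are close paralogs whose reads RSEM may divide between them, so their single values are uncertain.

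Of 14 genes that tag and carry lysosomal enzymes, 4 rose, 2 fell and 8 did not pass in NF-YAl, and 7 rose, 2 fell and 5 did not pass in NF-YAs. Their median log2FC were 0.07 and 0.19. Between the isoforms 2 were higher and 1 lower in NF-YAl, with a median of -0.10. IGF2R, the large mannose 6-phosphate receptor, measured 232, 249 and 239.5 CPM in the Empty libraries, 386, 364 and 319 in those of NF-YAl and 369, 363 and 396 in those of NF-YAs, with a log2FC of 0.57 (adjusted p = 0.000794) and 0.65 (adjusted p = 0.000289). M6PR, the small receptor, had 0.02 (adjusted p = 0.892) and 0.30 (adjusted p = 0.0453). VPS35, a retromer subunit that returns the receptors to the Golgi apparatus, fell by 0.93 and by 1.21 on the log2 scale (adjusted p = 2.14e-05 and 2.98e-06). SORT1, another sorting receptor, rose in both lines (0.79 and 0.43), and SORL1 fell in NF-YAl (-0.86).

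Of 32 lysosomal hydrolases and activators tested, 12 rose, 4 fell and 16 did not pass in NF-YAl, and 9 rose, 2 fell and 21 did not pass in NF-YAs. Their median log2FC were 0.22 and 0.19. PSAP, the precursor of the saposins, had a log2FC of 0.80 (adjusted p = 0.00067) and 0.62 (adjusted p = 0.00308). IDS, a sulfatase of heparan and dermatan sulfate, had -1.22 and -1.06, and GM2A, the activator of ganglioside breakdown, had -1.35 and -0.84, all past the test. NEU1 and GLB1, the partners of CTSA, had 0.03 and 0.52 in NF-YAl, where GLB1 passed (adjusted p = 0.0262), and -0.25 and 0.07 in NF-YAs, where neither passed. GLB1 measured 90.8, 64.2 and 54.0 CPM in the NF-YAl libraries, and replicate D lay within the Empty range of 44.2 to 54.6. HEXA was listed at or near 0 in these tables and was not tested.

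Of 7 other lysosomal peptidases, SCPEP1, a serine carboxypeptidase, rose in both lines (log2FC 0.62, adjusted p = 0.000379, and 0.92, adjusted p = 1.95e-05). LGMN, the asparaginyl endopeptidase that processes cathepsins, had 0.09 and -0.08 and did not pass. Of 13 lysosomal membrane proteins, 3 rose and 2 fell in NF-YAl, and 4 rose and 1 fell in NF-YAs, with 8 not past the test in each. Of 15 subunits of the proton pump that acidifies the lysosome, 2 rose and 2 fell in NF-YAl and 2 rose and 1 fell in NF-YAs, with 11 and 12 not past the test.

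Among the regulators of lysosomal genes, MITF rose in NF-YAl (log2FC 1.24, adjusted p = 0.000412) and TFE3 rose in NF-YAs (0.42, adjusted p = 0.00497). Both also differed between the isoforms, with log2FC of 0.87 (adjusted p = 0.0068) and -0.52 (adjusted p = 0.00248). TFEB had 0.15 and 0.48 and did not pass. TFEC fell in both lines, by 1.93 and by 2.59 on the log2 scale. Of 10 genes of the MHC class II pathway, in which CTSS acts, 4 could be tested, none passed in NF-YAl and 2 rose in NF-YAs. CD74, the invariant chain, stayed at or below 1 CPM in every library.

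**Figure D5:**
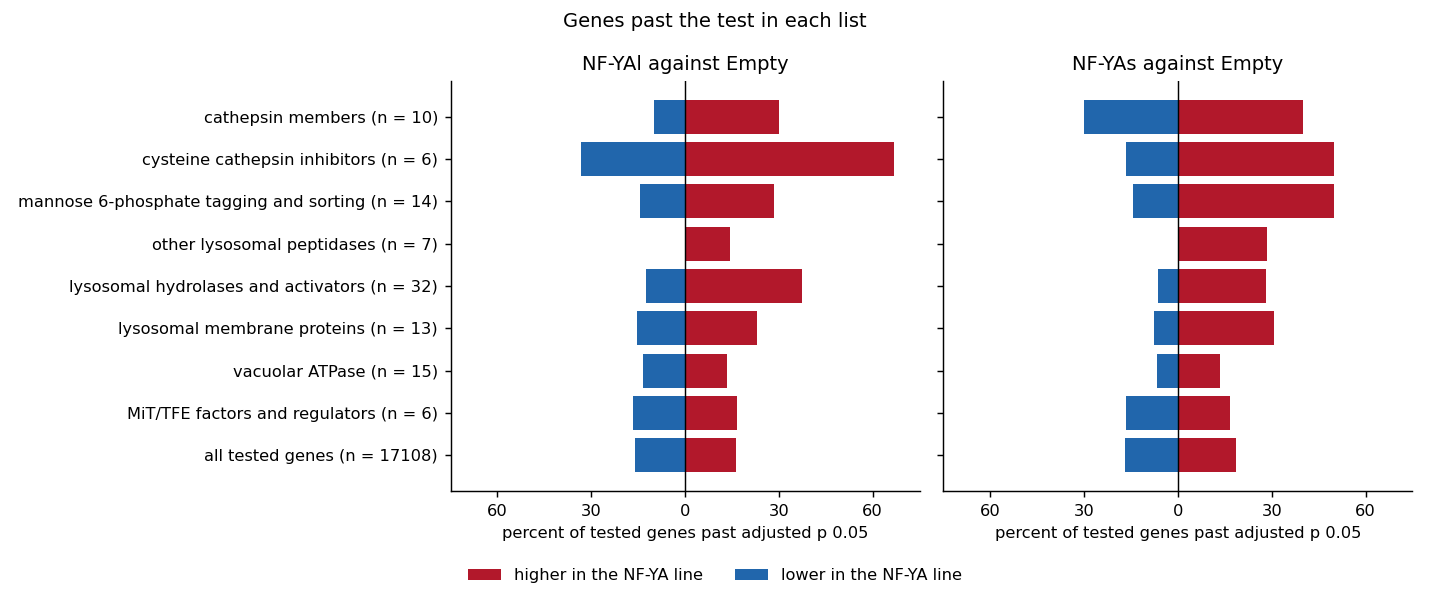
Percent of the tested genes of each list that were higher (red, right) or lower (blue, left) past an adjusted p of 0.05, in NF-YAl and NF-YAs against Empty, with the number of tested genes beside each list and all tested genes in the lowest bars. Cathepsins have 3 and 4 of 10 genes higher and 1 and 3 of 10 lower. Over all tested genes, 16.2% and 18.5% were higher and 15.9% and 16.9% lower.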

How the data were processed

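Per the labels and the study's methods, stranded total RNA was sequenced, and the authors used Bowtie2 within RSEM on RefSeq transcripts of the human build hg19 (GRCh37), and deposited expected counts and TPM of genes and transcripts. A deposited percent per transcript gives its part in the TPM of its gene. Whether strand was used in counting is not given in the sources used here. Expected counts are estimates in which RSEM divides ambiguous reads; gene values were rounded to whole numbers for edgeR 4.0.16 under R 4.3.3 (filterByExpr, TMM, 1 quasi-likelihood fit of the 9 libraries, Benjamini-Hochberg adjustment over 17108 genes). SE is the absolute log2FC over the square root of F. The procedure recovered 200 of 200 genes changed in simulated counts for NF-YAl against Empty and also called 18 unchanged genes, of 16898 genes run. The log2FC and the counts of the 200 changed genes are not given here. Recovery at the log2FC and counts of the cathepsin members was not tested. Replicate libraries differed beyond counting noise, with chi-square values per gene between 6.33 and 92.6.

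Members and gene lists were chosen with earlier results of these data known. All members were named, with NFYA, the other cathepsins, a fixed set of partners, and up to 4 genes per list, comparison and direction with the largest absolute log2FC among those past the test with at least 5 CPM and no overlap. The text names a part of these. Results for 1 marker list are not reported here. Alternatives were DESeq2 1.42.0, relative log expression scaling, other filters, other fits, limma 3.58.1 on log2(TPM + 0.1), and leaving out each library. Positions come from the GENCODE annotation of GRCh37.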

Additional observations from a re-analysis of the deposited data

How the results depend on the processing

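Of the 540 alternative values of a member's log2FC, 486 kept their direction and their side of an adjusted p of 0.05, 22 lost the call, 13 gained it and 19 changed sign, none of which belonged to a called difference. On log2(TPM + 0.1) with limma, the members past the test fell to 1 in NF-YAl against Empty, 3 in NF-YAs against Empty and 3 in NF-YAl against NF-YAs. With 1 library left out, these numbers ranged from 2 to 6, from 4 to 8, and stayed at 5. The shares of all tested genes past the test under these and the following alternatives are not given here. Changes in the number of members are thus not read as particular to cathepsins.

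The labels do not say that a replicate letter marks a shared experiment. Same-letter deviations from the line means correlated between -0.07 and 0.25 (mean 0.086), over 0.1 in 3 of 7 pairs, and other pairs had a mean of -0.030, over 0.1 in 1 of 20, so pairing in every pair was not found. With the letter as a block, 5, 8 and 5 members passed: in NF-YAl against Empty CTSD and CTSK gained the call and CTSH lost it, and in NF-YAs against Empty CTSC gained it. Only 1 library carries the letter D, so under this block NF-YAl replicate D no longer adds to the differences between lines. The block is therefore not separate from leaving that library out. The sign of CTSA, CTSB and CTSZ in NF-YAl against NF-YAs turned under this block (log2FC 0.092, 0.031 and -0.11). On log2(TPM + 0.1), CTSA turned in all 3 comparisons (0.18, 0.082 and 0.10) and CTSB in NF-YAl against NF-YAs (0.086). With TPM rescaled without short genes, an alternative chosen after seeing the data, CTSA turned to 0.043, 0.0055 and 0.038 and CTSB to 0.023. Leaving out 1 library turned 8 values, with a range over these fits of -0.019 to 0.27 for CTSL and -0.23 to 0.20 for CTSS in NF-YAl against Empty, and in NF-YAl against NF-YAs of -0.12 to 0.075 for CTSA, -0.087 to 0.016 for CTSB and -0.078 to 0.15 for CTSZ. The cause was not tested.

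With length-scaled TMM counts in place of TPM, 2 levels moved by more than 1 SD, CTSA in NF-YAs to 135 and CTSH in Empty to 30.1, and the other 28 did not. The 3 libraries per line limit precision. CTSS, with 20.6 to 38.6 expected counts per library, passed in no comparison, and the part of depth in this was not tested.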
